A study of Mus musculus with 27 samples.

Results

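The genes described here are 51 genes of the complement and coagulation systems, without the fibrinogen genes, measured in mouse liver. They are 26 complement genes and 25 coagulation genes, chosen by symbol, and a gene was kept if at least 10 reads were counted on it in at least 6 livers. All 51 met that rule, out of 23191 named genes in the table, of which 13981 met it. The complement and the coagulation genes were described apart and compared over genotype and diet.

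Complement is a cascade of plasma proteins, many of them proteases, that tags and lyses microbes. Lectins and the C1 complex start it, convertases that cleave C3 and C5 amplify it, and the terminal components assemble into a membrane pore. Coagulation runs from contact factors and tissue factor through factor X to thrombin, and is held in check by anticoagulant proteins and by plasmin, which dissolves clots. Hepatocytes make most of the circulating components, whereas the receptors of complement fragments are found on macrophages and other leukocytes, and factor VIII is made by endothelial cells.

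Liver RNA of 27 male C57BL/6J mice was sequenced in 4 groups. They were littermate controls (7 mice) and HGFAC-KO mice (6 mice) on chow, and controls (7 mice) and HGFAC-KO mice (7 mice) on a diet rich in fat and sucrose (HF/HS), which began at 8 weeks of age and lasted 4 weeks. HGFAC-KO mice lack hepatocyte growth factor activator in the whole body, through a CRISPR/Cas9 deletion of part of the first exon and all of the second exon of *Hgfac*. No source used here ties a mouse to a litter, so p-values measure the spread between these mice. Levels are CPM, read counts relative to library size after TMM scaling, from libraries of 36056177 to 57298657 counts.

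*Hgfac* itself spanned 183 to 220.0 CPM in the chow controls against 65.6 to 84.8 CPM in the chow HGFAC-KO group, and 247 to 293 CPM against 81.6 to 101 CPM on HF/HS. Every HGFAC-KO mouse was thus below every control of its diet, and reads of exons outside the deletion can remain. The 5 hepatocyte markers in the table were above 0 in every liver, as were all markers of Kupffer cells, sinusoidal endothelial cells and stellate cells.

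Per kilobase of exon, the members covered a wide range of levels. In controls on chow, *C3*, the protein on which the complement pathways converge, was the highest with a median of 1985 CPM per kilobase, followed by *Vtn* (vitronectin, an inhibitor of the membrane pore) with 1152 CPM per kilobase. *Plg* (plasminogen, 608 CPM per kilobase) and *Kng1* (kininogen, 516 CPM per kilobase) led the coagulation genes. *C3* alone held 44.6% of the summed CPM of the 26 complement genes. From *C3* down to *Masp1*, a protease of the lectin pathway with 9.26 CPM per kilobase, 40 members had at least 15 CPM. The other 11 lay between 0.0669 (*Plat*, tissue plasminogen activator) and 1.90 CPM per kilobase (*Cd55*, which dissociates convertases on host cells). They were *Cd55*, *Thbd*, *F8*, *F3*, *Tfpi*, *C5ar1*, *C3ar1*, *Vwf*, *Cfd*, *Plau* and *Plat*.

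**Figure D1:**
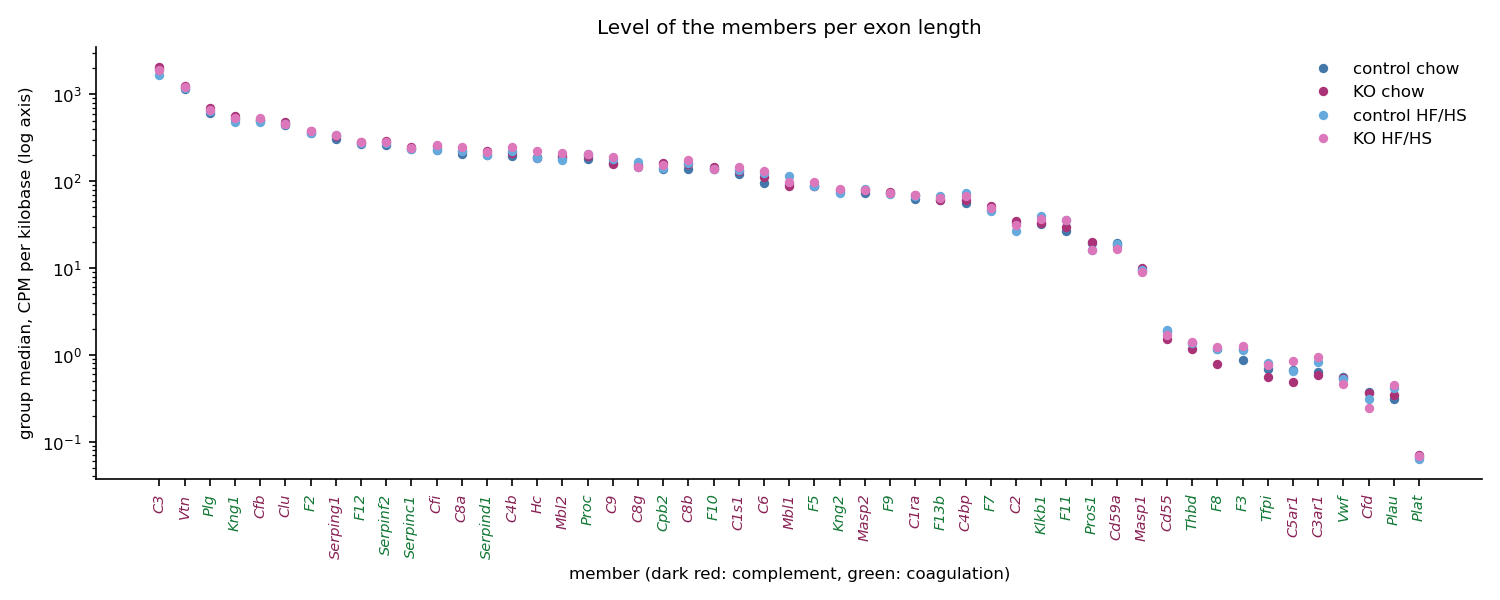
Median level of each of the 51 members in each of the 4 groups, in CPM per kilobase of exon on a log axis, ordered by the median of controls on chow. From *C3* at 1985 CPM per kilobase the levels fall to *Masp1* at 9.26, and 11 members lie apart below it, from 1.90 to 0.0669 CPM per kilobase.

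The spread between mice of a group was widest among those 11 genes. The coefficient of variation, averaged over the groups, was under 10% for 25 members and over 20% for 8, all of them among the 11, and it reached at most 17.6% in the 40 others. *Serpinc1* (antithrombin, which inhibits thrombin) varied least, at 3.94%, followed by *F2* (prothrombin) at 4.29%. *Cfd* (factor D, made mainly in fat) varied most, at 82.0%. *Cfd* ran from 0.0521 to 1.65 CPM over all livers, and its 2 highest values, 1.65 CPM in control chow replicate 1 and 1.49 CPM in KO HF/HS replicate 1, fell in the livers with the highest *Adipoq*, an adipocyte gene, at 0.292 and 0.32 CPM. Of the 5 adipocyte markers, 0 were above 0 in every liver, *Lep* was at 0 in all 27, and their sum ran from 0 to 0.73 CPM, from 0 to 0.0966 CPM, from 0.0237 to 0.289 CPM and from 0.0214 to 0.534 CPM in the chow controls, the chow HGFAC-KO group, the HF/HS controls and the HF/HS HGFAC-KO group. Their part in the level of *Cfd* was not tested.

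A pair of libraries stood apart by *Saa1*, an acute phase gene of the liver. It was at 1289.5 CPM in KO chow replicate 4 and at 1227 CPM in control HF/HS replicate 7, and from 16.3 to 246 CPM in the other 25 livers. In each group, the liver with the highest *Saa1* also had the highest summed complement level. These were control chow replicate 3 (25445 CPM against a group median of 22743), KO chow replicate 4 (27588 CPM against a group median of 24179.6), control HF/HS replicate 7 (29385 CPM against a group median of 22074) and KO HF/HS replicate 2 (31198 against 23230.4). In the same livers 12, 11, 19 and 13 of the 26 complement genes and 7, 3, 8 and 5 of the 25 coagulation genes had the highest value of their group. The summed coagulation level, from 11470.2 to 13727 CPM over all livers, peaked in that liver in the control HF/HS group and in another liver in the other groups. Without the pair the log2 fold change turned its sign in 1 member for the genotype on chow, 7 for the genotype on HF/HS, 6 for the diet in controls and 3 for the diet in HGFAC-KO mice, of which 0 passed the threshold below with or without the pair. It kept its sign but moved by over 1.5 times in 14, 17, 13 and 11 further members, and such members are given with both values where their log2 fold change is printed.

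**Figure D2:**
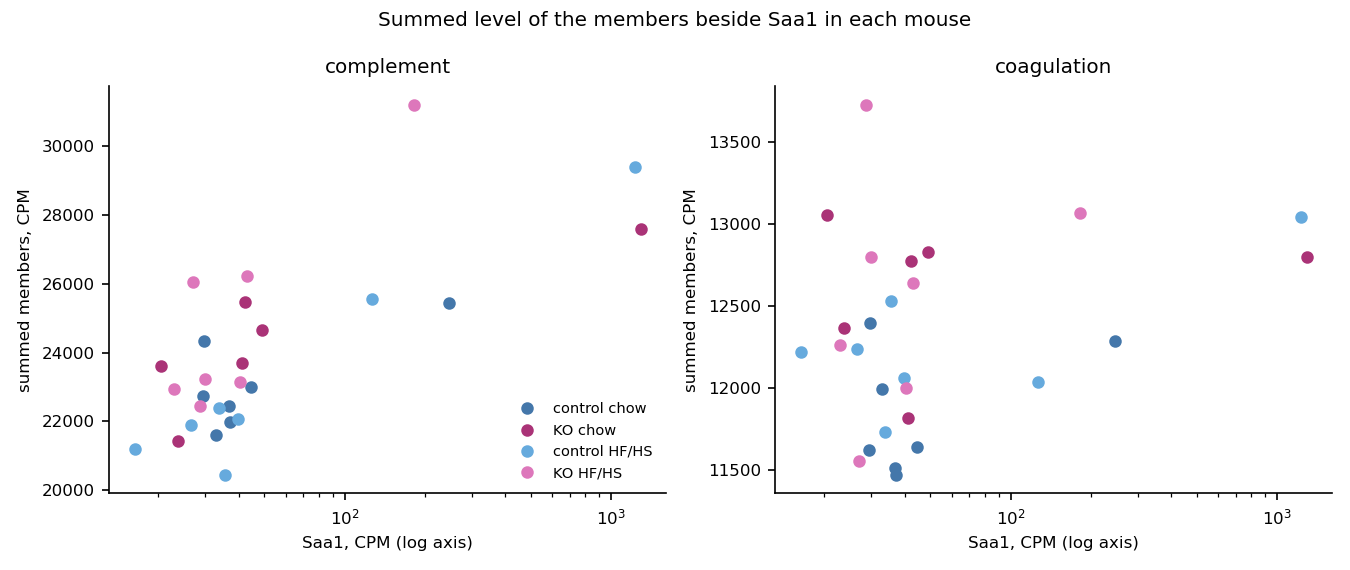
Summed CPM of the 26 complement genes (left) and of the 25 coagulation genes (right) against the CPM of *Saa1* on a log axis, with 1 point per mouse coloured by group. The 5 livers above 100 CPM of *Saa1* had complement sums from 25445 to 31198 CPM and coagulation sums from 12037 to 13069 CPM.

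To ask whether loss of HGFAC changed these genes, HGFAC-KO mice were compared with controls within each diet. On chow, 0 of 26 complement and 0 of 25 coagulation genes passed the threshold, an adjusted p under 0.05 (edgeR, quasi-likelihood test, adjusted over all genes by the Benjamini-Hochberg method), where 0.00737% of all 13571 genes passed. DESeq2 and limma voom called 0 as well. At an unadjusted p under 0.05 there were 3 complement and 5 coagulation genes by edgeR, 4 and 8 by DESeq2, and 3 and 6 by limma voom, beside 5.98% of all genes by edgeR. The log2 fold change was above 0 in 17 of the 26 complement genes (median 0.078) and in 18 of the 25 coagulation genes (median 0.09), against 51.2% of all genes (median 0.0031). Without the high-*Saa1* mouse the medians were 0.037 and 0.086, with 17 of 26 and 17 of 25 above 0. In that fit the members at an unadjusted p under 0.05 by edgeR were *C1ra*, *Masp2* and *C5ar1* in complement and *Serpinf2* and *F3* in coagulation. The fit left out an HGFAC-KO mouse alone and kept control chow replicate 3, with *Saa1* at 246 CPM and the highest complement sum of the chow controls.

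The levels of markers of the liver's cells are given beside these values. The sum of the hepatocyte markers ran from 74769 to 86519 CPM in chow controls, against from 86497 to 97631 CPM in the chow HGFAC-KO group, with 3 of 5 higher by log2 fold change. Most of that sum is *Alb*, with medians of 58886 and 69501 CPM. *Apoa1* had medians of 9180 and 11431 CPM, whereas *Apob* (6384.5 and 5542 CPM) and *Ttr* (4006 and 3661 CPM) were lower in the HGFAC-KO group. Of the Kupffer cell markers 0 of 7 and of the sinusoidal endothelial markers 1 of 7 were higher, with medians of -0.29 and -0.21 and none past the threshold. The receptors *C3ar1* (-0.27, SE 0.18) and *C5ar1* (-0.23, SE 0.27) had log2 fold changes below 0 too, as had *F8* and *Tfpi* (-0.27, SE 0.15). That of *C5ar1* without the high-*Saa1* mouse was -0.52 (adjusted p = 0.682 from edgeR). The part of these cells in the members' values was not tested, and in bulk liver fewer cells of a type and less RNA per cell cannot be told apart.

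Among the complement genes on chow, *C1ra* spanned 176 to 199 CPM (median 186) in controls and 185 to 227 CPM (median 207) in HGFAC-KO mice. It encodes a protease of the C1 complex, and its groups overlapped, with 4 of 6 HGFAC-KO mice above all controls (log2 fold change 0.13, SE 0.055, adjusted p = 0.801 from edgeR). *Masp2* spanned 229 to 264 CPM (median 241) in controls and 250.2 to 282 CPM (median 264) in HGFAC-KO mice, with 3 of 6 above all controls (log2 fold change 0.11, SE 0.047). It encodes the protease that mannose-binding lectins activate. *Cfi* spanned 471 to 559.8 CPM (median 509.9) in controls and 522 to 589 CPM (median 566) in HGFAC-KO mice, with 3 of 6 above all controls (log2 fold change 0.12, SE 0.054). It encodes factor I, which cleaves C3b and C4b, and none of the 3 genes separated the genotypes.

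Among the coagulation genes on chow, *Serpinf2* spanned 548 to 635 CPM (median 605) in controls and 594 to 715 CPM (median 679) in HGFAC-KO mice. It encodes the plasmin inhibitor alpha-2-antiplasmin and had the smallest p of the 51 members, with 4 of 6 HGFAC-KO mice above all controls (log2 fold change 0.15, SE 0.053, adjusted p = 0.801 from edgeR). *Plg* spanned 2145 to 2429 CPM (median 2254) in controls and 2207 to 2645 CPM (median 2563) in HGFAC-KO mice, with 4 of 6 above all controls (log2 fold change 0.13, SE 0.054). *F8* spanned 6.51 to 14.6 CPM (median 11.5) in controls and 5.18 to 9.60 CPM (median 7.86) in HGFAC-KO mice, with 2 of 6 below all controls. It encodes factor VIII, and its log2 fold change was -0.44 (SE 0.19, adjusted p = 0.801). No member separated the genotypes on chow, as 0.125% of all genes did.

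On HF/HS, 0 of 26 complement and 0 of 25 coagulation genes passed by edgeR, DESeq2 or limma voom, where 0.0148% of all 13544 genes passed by edgeR. At an unadjusted p under 0.05 there were 4 complement and 0 coagulation genes by edgeR, 5 and 1 by DESeq2, and 4 and 0 by limma voom, beside 9.64% of all genes by edgeR. The log2 fold change was above 0 in 15 of 26 complement genes (median 0.041) and 15 of 25 coagulation genes (median 0.013), against 49.5% of all genes. Without the high-*Saa1* mouse, a control here, the medians were 0.097 and 0.056, with 20 of 26 and 17 of 25 above 0. In that fit *C2*, *C3*, *Cfb* and *Klkb1* also came under an unadjusted p of 0.05 by edgeR. The fit left out a control alone and kept KO HF/HS replicate 2, with *Saa1* at 181 CPM and the highest complement sum of all livers (31198 CPM). The hepatocyte sum ran from 74037 to 95559.6 CPM in these controls, against from 86648 to 113493 CPM in the HGFAC-KO group, with 4 of 5 higher by log2 fold change. Most of it is again *Alb*, with medians of 55491 and 79671 CPM, whereas *Apoa1* was lower in the HGFAC-KO group (medians of 11693 and 10612.5 CPM). Of the sinusoidal endothelial markers 1 of 7 was higher (median log2 fold change -0.16, the controls' sums from 186 to 303 CPM, those of the HGFAC-KO group from 180.5 to 266 CPM) and of the Kupffer cell markers 5 of 7 (median 0.057), with none past the threshold. The part of these cells in the members' values, that of *Tfpi* below included, was not tested.

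With all mice of this diet in the fit, the mannose-binding lectins, which recognise sugars on microbes, had the smallest p on HF/HS and opposite signs. *Mbl1* spanned 159.8 to 218 CPM (median 180.4) in controls and 144 to 182 CPM (median 153) in HGFAC-KO mice, with 4 of 7 HGFAC-KO mice below all controls (log2 fold change -0.19, SE 0.072, adjusted p = 0.448 from edgeR). *Mbl2* spanned 175 to 226 CPM (median 192) in controls and 180.5 to 269 CPM (median 229) in HGFAC-KO mice, with 4 of 7 above all controls (log2 fold change 0.21, SE 0.084, adjusted p = 0.452). Neither separated the genotypes, as 0.0812% of all genes did. *Cd59a* spanned 29.9 to 41.3 CPM (median 34.7) in controls and 27.8 to 33.6 CPM (median 30.2) in HGFAC-KO mice, with 2 of 7 below all controls (log2 fold change -0.19, SE 0.074). It encodes a membrane protein that blocks the pore on host cells. *Cfi* had a log2 fold change of 0.19 (SE 0.082), and without the high-*Saa1* control of 0.25, with an adjusted p of 0.229 from edgeR. In the fit without that control *Cfi* had the smallest p of the members, followed by *Cd59a*, ahead of both lectins.

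Of the coagulation genes on HF/HS, *Serpind1* spanned 424 to 461 CPM (median 441) in controls and 434 to 505 CPM (median 479) in HGFAC-KO mice, with 5 of 7 HGFAC-KO mice above all controls (log2 fold change 0.086, SE 0.045, adjusted p = 0.556 from edgeR). It encodes heparin cofactor II, a thrombin inhibitor. *Klkb1* spanned 158 to 248 CPM (median 211) in controls and 155 to 213 CPM (median 192) in HGFAC-KO mice, with 1 of 7 below all controls (log2 fold change -0.15, SE 0.096). *Tfpi* spanned 4.03 to 6.44 CPM (median 4.39) in controls and 3.36 to 5.21 CPM (median 4.23) in HGFAC-KO mice, with 2 of 7 below all controls (log2 fold change -0.18, SE 0.11). The groups of each of the 3 genes overlapped.

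The difference of the genotype effect between the diets, tested as an interaction over all 27 mice, passed for 0 members by edgeR, DESeq2 or limma voom, as for 0% of all 13932 genes by edgeR. At an unadjusted p under 0.05 there were 1 complement and 0 coagulation genes by edgeR, 1 and 0 by DESeq2, and 1 and 0 by limma voom, beside 3.63% of all genes by edgeR. That gene was *Masp2*, whose genotype effect was 0.11 on chow and -0.029 on HF/HS on the log2 scale (difference -0.14, SE 0.066, adjusted p = 0.984 from edgeR). *Cd59a* (-0.15, SE 0.093), *C8g* (-0.17, SE 0.11), *Proc* (-0.14, SE 0.081), *Plg* (-0.14, SE 0.084) and *F10* (-0.11, SE 0.068) came next in the 2 lists. Without the high-*Saa1* pair the difference was -0.093 for *Plg*, the effect of *Masp2* on HF/HS was -0.014, and 10 members had a difference of the other sign, with 0 past the threshold. In that fit *C3ar1* (difference 0.50, SE 0.24) was the member at an unadjusted p under 0.05 by edgeR, and *Masp2* was not. Averaged over the diets, the genotype effect passed for 0 members with each tool, where 0.1% of all genes passed by edgeR. The counts at an unadjusted p under 0.05 were 7 complement and 6 coagulation genes by edgeR, 8 and 8 by DESeq2, and 8 and 6 by limma voom, beside 12.7% of all genes by edgeR. The smallest adjusted p was that of *Cfi* (log2 fold change 0.15, SE 0.05, adjusted p = 0.183), and *Mbl2* (0.21, SE 0.078), *C1ra* (0.1, SE 0.038), *Serpind1* (0.089, SE 0.03), *Tfpi* (-0.23, SE 0.095) and *F8* (-0.28, SE 0.12) followed in their lists.

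**Figure D3:**
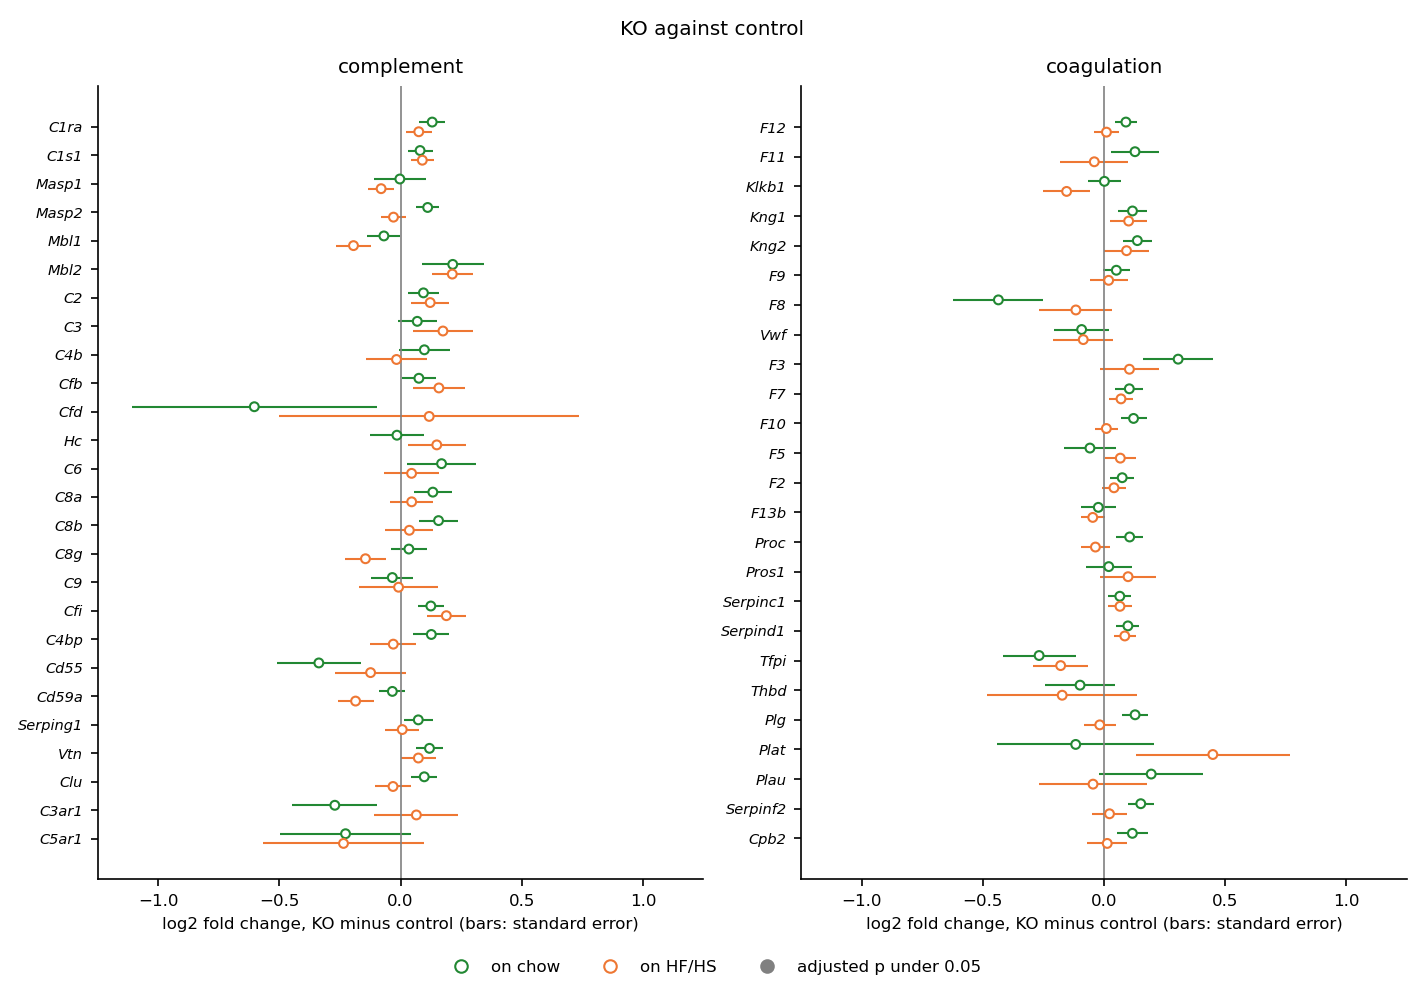
Log2 fold change of each member between HGFAC-KO mice and controls on chow (green) and on HF/HS (orange), with bars of 1 standard error, complement left and coagulation right. Filled points would mark an adjusted p under 0.05, and all 51 members have open points on both diets.

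More of these genes passed the threshold by diet. In controls, HF/HS against chow raised 5 of 26 complement genes (19.2%) and 4 of 25 coagulation genes (16.0%), while 4.93% of all 13525 genes rose. It lowered 0 complement genes and 1 coagulation gene (4.0%), while 5.6% of all genes fell. By DESeq2 6 complement and 7 coagulation genes passed in either direction, with 14.3% of all genes against 10.5% by edgeR. The log2 fold change was above 0 in 22 of 26 (median 0.13) and 19 of 25 (median 0.062), with a median of 0.0036 over all genes. Without the high-*Saa1* mouse the medians were 0.094 and 0.024, with 19 of 26 and 16 of 25 above 0. The genotype comparisons and the diet comparisons share their mice.

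**Figure D4:**
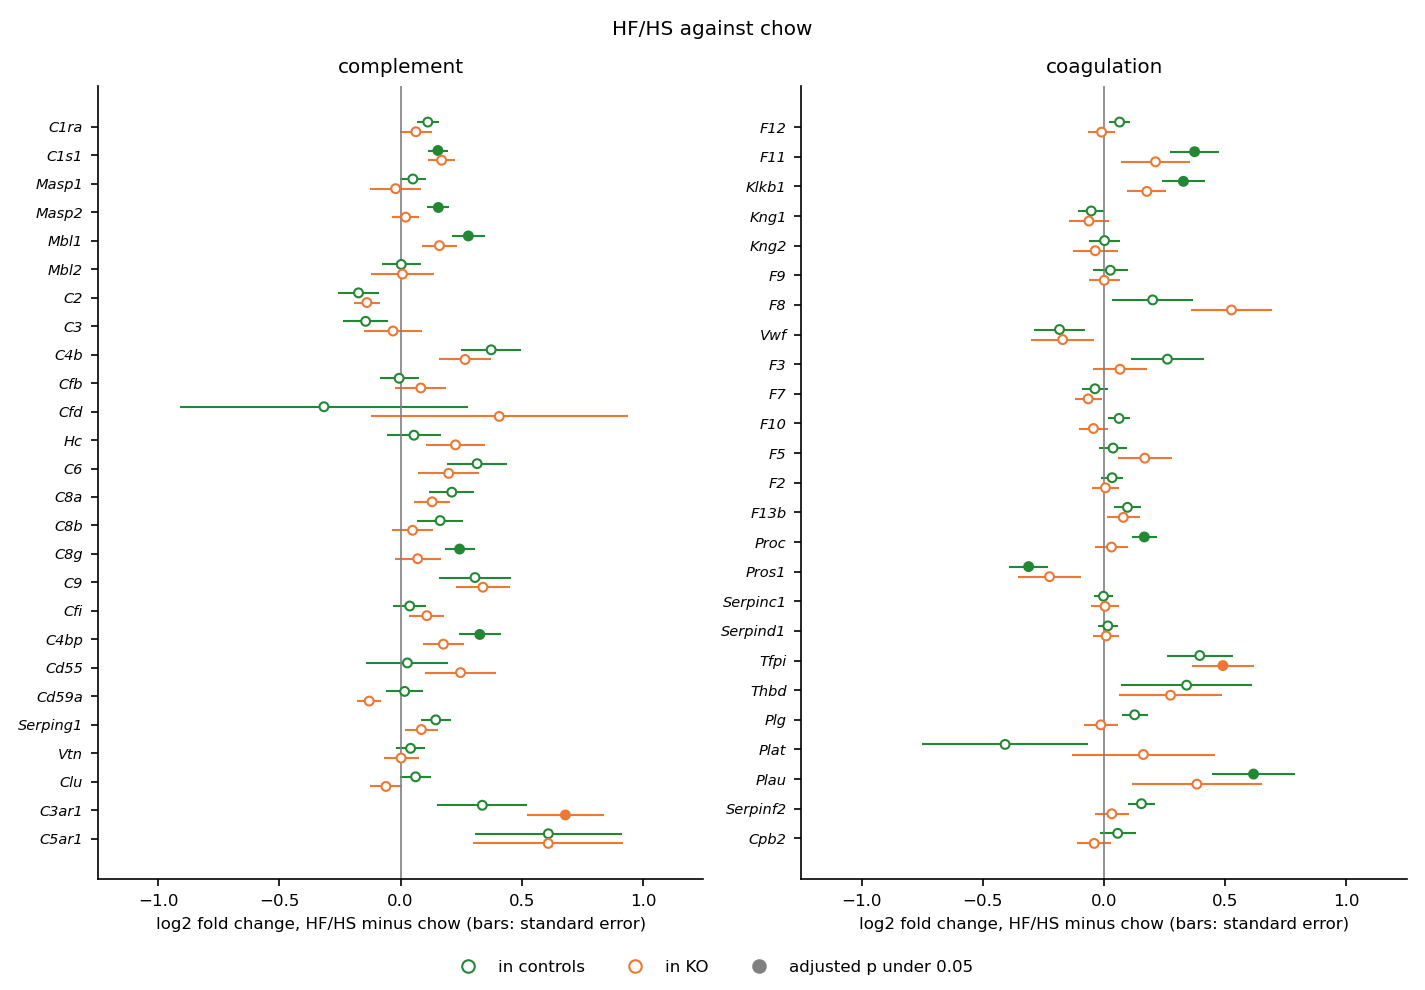
Log2 fold change of each member between HF/HS and chow in controls (green) and in HGFAC-KO mice (orange), with bars of 1 standard error, complement left and coagulation right. Filled points have an adjusted p under 0.05, which are 10 members in controls and 2 in HGFAC-KO mice.

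Of the recognition proteins and initiating proteases, 3 of 6 rose in controls. *Mbl1* (chr14:41151458-41159601, plus strand, GRCm38) spanned 136 to 168 CPM (median 147) on chow and 159.8 to 218 CPM (median 180.4) on HF/HS, with 5 of 7 HF/HS mice above all chow mice. It rose by 21.4% (log2 fold change 0.28, SE 0.068, adjusted p = 0.0145 from edgeR), and it passed under all 20 alternatives run, also without the high-*Saa1* mouse (log2 fold change 0.23, adjusted p = 0.0185). The other mannose-binding lectin, *Mbl2*, had medians of 200.5 and 192 CPM (log2 fold change 0.0028, SE 0.082, and -0.011 without that mouse).

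*C1s1* (chr6:124530345-124542359, minus strand) spanned 348 to 400.0 CPM (median 384) on chow and 407 to 447 CPM (median 419) on HF/HS, so that the groups did not overlap, as for 3.56% of all genes. It encodes the protease C1s and rose by 11.3% (log2 fold change 0.15, SE 0.042, adjusted p = 0.0285 from edgeR). Its call was lost without control chow replicate 1, 4 or 6 or control HF/HS replicate 5 (adjusted p from 0.0527 to 0.0571), and it passed under 5 of 6 other alternatives (adjusted p up to 0.104). *Masp2* (chr4:148602554-148615499, plus strand) spanned 229 to 264 CPM (median 241) on chow and 263 to 288 CPM (median 269.7) on HF/HS, with 6 of 7 HF/HS mice above all chow mice. It rose by 11.4% (log2 fold change 0.16, SE 0.045, adjusted p = 0.0368), but it passed in 6 of the 14 fits that left out 1 mouse (adjusted p up to 0.0809, and 0.0584 without the high-*Saa1* mouse) and under 3 of 6 other alternatives (adjusted p up to 0.124). Of its exon bases 54.9% lie opposite exons of *Tardbp*, and of those of *C1s1* 18.4% opposite an antisense gene. *C1ra* (0.11, SE 0.044) and *Masp1* (0.051, SE 0.053, and 0.024 without that mouse) did not pass.

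Of the convertase components 0 of 5 passed in controls, and 4 of 5 had log2 fold changes below 0. *C3* had medians of 10208 CPM on chow and 8491 CPM on HF/HS (log2 fold change -0.14, SE 0.093, adjusted p = 0.358 from edgeR), and without the high-*Saa1* mouse its log2 fold change was -0.22 (adjusted p = 0.0662). *C4b*, the fourth component, had medians of 1109.9 and 1279 CPM (log2 fold change 0.37, SE 0.12, adjusted p = 0.066). The proteases of the convertases, *C2* (-0.17, SE 0.083) and *Cfb* (-0.0057, SE 0.08, and -0.076 without that mouse), and *Cfd*, which cleaves factor B (-0.32, SE 0.59), had the values given on the log2 scale.

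Of the 6 terminal components *C8g* passed in controls, and all 6 had log2 fold changes above 0 with all mice in the fit. *C8g* (chr2:25498651-25501719, minus strand) spanned 204 to 240.1 CPM (median 215) on chow and 229.5 to 302 CPM (median 249) on HF/HS, with 5 of 7 HF/HS mice above all chow mice. It encodes the gamma chain of C8, rose by 18.4% (log2 fold change 0.24, SE 0.062, adjusted p = 0.0199 from edgeR) and passed with each mouse left out (adjusted p up to 0.0461) and under 5 of 6 other alternatives (adjusted p up to 0.0762). The other chains of C8, *C8a* (0.21, SE 0.093) and *C8b* (0.16, SE 0.094), and *C6* (0.32, SE 0.12), *C9* (0.31, SE 0.15) and *Hc*, which encodes C5 (0.055, SE 0.11), did not pass. Leaving out the high-*Saa1* mouse gave log2 fold changes of 0.17 for *C9*, 0.099 for *C8b* and -0.021 for *Hc*, so that 5 of 6 were above 0.

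Of the 7 regulators, *C4bp* passed. *C4bp* (chr1:130634773-130661632, minus strand) spanned 353 to 448 CPM (median 379) on chow and 395 to 611 CPM (median 488) on HF/HS, with 4 of 7 HF/HS mice above all chow mice. It encodes the C4b-binding protein, a cofactor in the cleavage of C4b, and rose by 25.4% (log2 fold change 0.33, SE 0.087, adjusted p = 0.0251 from edgeR). Its highest value was that of the high-*Saa1* mouse, without which the log2 fold change was 0.26 (adjusted p = 0.0351), and its call was lost without control chow replicate 2, 5 or 6 (adjusted p from 0.051 to 0.0531). *Serping1*, the C1 inhibitor, had 0.15 (SE 0.063), and the other 5, *Cfi*, *Cd55*, *Cd59a*, *Vtn* and *Clu*, lay between 0.017 and 0.062 on the log2 scale, and without the high-*Saa1* mouse between -0.021 (*Cfi*) and 0.045 (*Cd59a*). The receptors *C3ar1* (0.34, SE 0.19) and *C5ar1* (0.61, SE 0.30) did not pass, and without the high-*Saa1* mouse their log2 fold changes were 0.18 and 0.29.

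In the contact and intrinsic pathway, 2 of 8 genes rose in controls, and they are neighbours. *F11* (chr8:45241174-45262031, minus strand) spanned 51.7 to 73.3 CPM (median 60.4) on chow and 66.5 to 105 CPM (median 80.6) on HF/HS, with 6 of 7 HF/HS mice above all chow mice. It encodes factor XI and rose by 29.6% (log2 fold change 0.37, SE 0.10, adjusted p = 0.0273 from edgeR), and its call was lost without control chow replicate 2, 5, 6 or 7 (adjusted p from 0.053 to 0.057) and kept under 5 of 6 other alternatives (adjusted p up to 0.055). *Klkb1* (chr8:45266689-45294859, minus strand) spanned 141 to 183 CPM (median 169) on chow and 158 to 248 CPM (median 211) on HF/HS, with 6 of 7 above all chow mice. It encodes plasma prekallikrein, the zymogen that factor XII activates, and rose by 25.5% (log2 fold change 0.33, SE 0.089, adjusted p = 0.028). The high-*Saa1* mouse was the lowest of its HF/HS group for *Klkb1*, without it the log2 fold change was 0.39 (adjusted p = 0.00339), and the call was lost without control chow replicate 2 or 6 or control HF/HS replicate 2 or 5 (adjusted p from 0.0522 to 0.0583) and kept under 5 of 6 other alternatives (adjusted p up to 0.086).

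The annotated ends of *F11* and *Klkb1* are 4657 bases apart. Of the exon bases of *Klkb1*, 43.2% also belong to Gm45753, an annotated gene on the same strand, and how reads in such bases were assigned is not given in the sources used here. The other contact and intrinsic genes did not pass. *F12* had medians of 522 and 539 CPM on chow and HF/HS, *Kng1* of 1676 and 1584 CPM, and *F9* of 198 and 194 CPM. *Kng2* (0.002, SE 0.063), *F8* (0.20, SE 0.17) and *Vwf* (-0.18, SE 0.10) complete the group on the log2 scale.

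The 250 bases before the start are shown for 4 genes whose level changed, namely the neighbours *F11* and *Klkb1*, the complement regulator *C4bp*, and *Pros1*, which fell. They are taken from RefSeq (GRCm38.p6) and run 5′ to 3′ on the strand of the gene, at chr8:45262032-45262281, chr8:45294836-45295085 and chr1:130661619-130661868 (minus strand) and chr16:62854057-62854306 (plus strand). Capitals mark matches on either strand to TTGCNNAA (C/EBP), TTCNNNGAA (STAT) or GTTAAT (HNF1).
F11: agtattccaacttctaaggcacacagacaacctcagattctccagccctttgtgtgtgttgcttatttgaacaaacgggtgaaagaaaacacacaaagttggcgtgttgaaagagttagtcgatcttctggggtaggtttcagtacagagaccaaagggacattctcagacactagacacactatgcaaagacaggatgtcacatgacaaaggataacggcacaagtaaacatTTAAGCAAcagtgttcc
Klkb1: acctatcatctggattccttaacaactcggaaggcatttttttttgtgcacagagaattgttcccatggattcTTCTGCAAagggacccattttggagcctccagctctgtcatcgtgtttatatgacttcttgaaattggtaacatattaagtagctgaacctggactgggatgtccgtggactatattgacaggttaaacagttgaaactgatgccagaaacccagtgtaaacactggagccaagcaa
C4bp: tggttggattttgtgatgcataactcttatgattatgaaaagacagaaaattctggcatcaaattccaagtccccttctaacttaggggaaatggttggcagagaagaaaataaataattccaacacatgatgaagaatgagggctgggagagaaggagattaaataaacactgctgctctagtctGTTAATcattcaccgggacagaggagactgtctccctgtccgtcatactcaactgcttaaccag
Pros1: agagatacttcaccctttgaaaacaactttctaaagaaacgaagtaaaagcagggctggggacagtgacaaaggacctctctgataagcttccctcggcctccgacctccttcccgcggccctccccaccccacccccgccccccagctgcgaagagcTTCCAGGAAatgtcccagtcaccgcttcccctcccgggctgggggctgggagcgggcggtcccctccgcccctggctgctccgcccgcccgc

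These regions were found for 37 of the 51 members, with the first start listed for each gene. Those of *Serping1*, *C4b*, *Thbd*, *Cfi*, *Vwf*, *Plat*, *Plau*, *Proc*, *C2*, *Cfb*, *Kng1*, *Plg*, *Clu* and *Masp1* were not in the table used. TTGCNNAA was in 7 of the 37 (18.9%, against 9.55% of 27025 promoters of all genes), with a match 17 bases before the start in *F11* and 177 bases before it in *Klkb1*. GTTAAT was in 7 of 37 (18.9%, against 6.52%), 64 bases before the start in *C4bp*. TTCNNNGAA was in 4 of 37 (10.8%, against 7.18%), 92 bases before the start in *Pros1*. The HNF4 letters CAAAGTCCA were in 0 of 37 (against 0.381%). Each of the 4 regions shown held 1 match, so none overlapped, and a match describes letters and not a bound factor. Of the other members called by diet within a genotype and found in the table, *C1s1* and *Masp2* held 1 match each. The regions of *Mbl1*, *C8g*, *C3ar1* and *Tfpi*, also called, held 0, so the regions shown do not stand for all called members.

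Of the extrinsic and common pathway, 0 of 6 genes passed in controls. *F2* had medians of 1642 and 1644 CPM on chow and HF/HS, *F10* of 378 and 379.7 CPM, and *F7* of 87.8 and 84.2 CPM. *F5* (0.037, SE 0.059, and 0.024 without the high-*Saa1* mouse), *F3*, which encodes tissue factor (0.26, SE 0.15), and *F13b* (0.097, SE 0.054) had the values given on the log2 scale.

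The anticoagulant genes included the 1 member that fell. *Pros1* (chr16:62854307-62929346, plus strand) spanned 71.2 to 86.8 CPM (median 80.0) on chow and 49.8 to 75.4 CPM (median 65.4) on HF/HS, with 5 of 7 HF/HS mice below all chow mice. It encodes protein S, the cofactor of protein C, and its log2 fold change was -0.31 (SE 0.079, adjusted p = 0.0194 from edgeR). It passed with each mouse left out (adjusted p up to 0.0413) and under 4 of 6 other alternatives, and was lost with all 27 mice in the fit (adjusted p = 0.0684). *Proc* (chr18:32123126-32139570, minus strand) spanned 434 to 496 CPM (median 450.1) on chow and 467 to 578 CPM (median 504) on HF/HS, with 5 of 7 above all chow mice. It encodes protein C, which inactivates factors V and VIII, and rose by 12.2% (log2 fold change 0.17, SE 0.051, adjusted p = 0.0485), but it passed in 3 of the 14 fits that left out 1 mouse (adjusted p up to 0.09) and under 2 of 6 other alternatives (adjusted p up to 0.151). *Serpinc1* had medians of 1988 and 2029 CPM and *Serpind1* of 439.8 and 441 CPM, while *Tfpi* (0.39, SE 0.14) and *Thbd* (0.34, SE 0.27) did not pass. The value of *Thbd* rested on the high-*Saa1* mouse, its highest at 13.8 CPM, without which the log2 fold change was -0.0022 (SE 0.16).

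In fibrinolysis, *Plau* (chr14:20836660-20843385, plus strand) spanned 0.59 to 0.912 CPM (median 0.737) on chow and 0.819 to 1.70 CPM (median 0.989) on HF/HS, with 5 of 7 HF/HS mice above all chow mice. It encodes the urokinase plasminogen activator and rose by 53.3% (log2 fold change 0.62, SE 0.17, adjusted p = 0.0296 from edgeR), the largest relative change of the 10 called members at the lowest level. Its call was lost without control chow replicate 1, 2, 5 or 7 or control HF/HS replicate 2 or 5 (adjusted p from 0.0508 to 0.0644), and it passed under 4 of 6 other alternatives (adjusted p up to 0.109). *Plg* (0.13, SE 0.054) and *Serpinf2* (0.15, SE 0.057) did not pass, nor did *Cpb2*, which encodes the fibrinolysis inhibitor TAFI (0.056, SE 0.074), and *Plat* (-0.41, SE 0.34). The high-*Saa1* mouse had the highest *Cpb2*, and leaving it out gave a log2 fold change of -0.016 (SE 0.051).

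**Figure D5:**
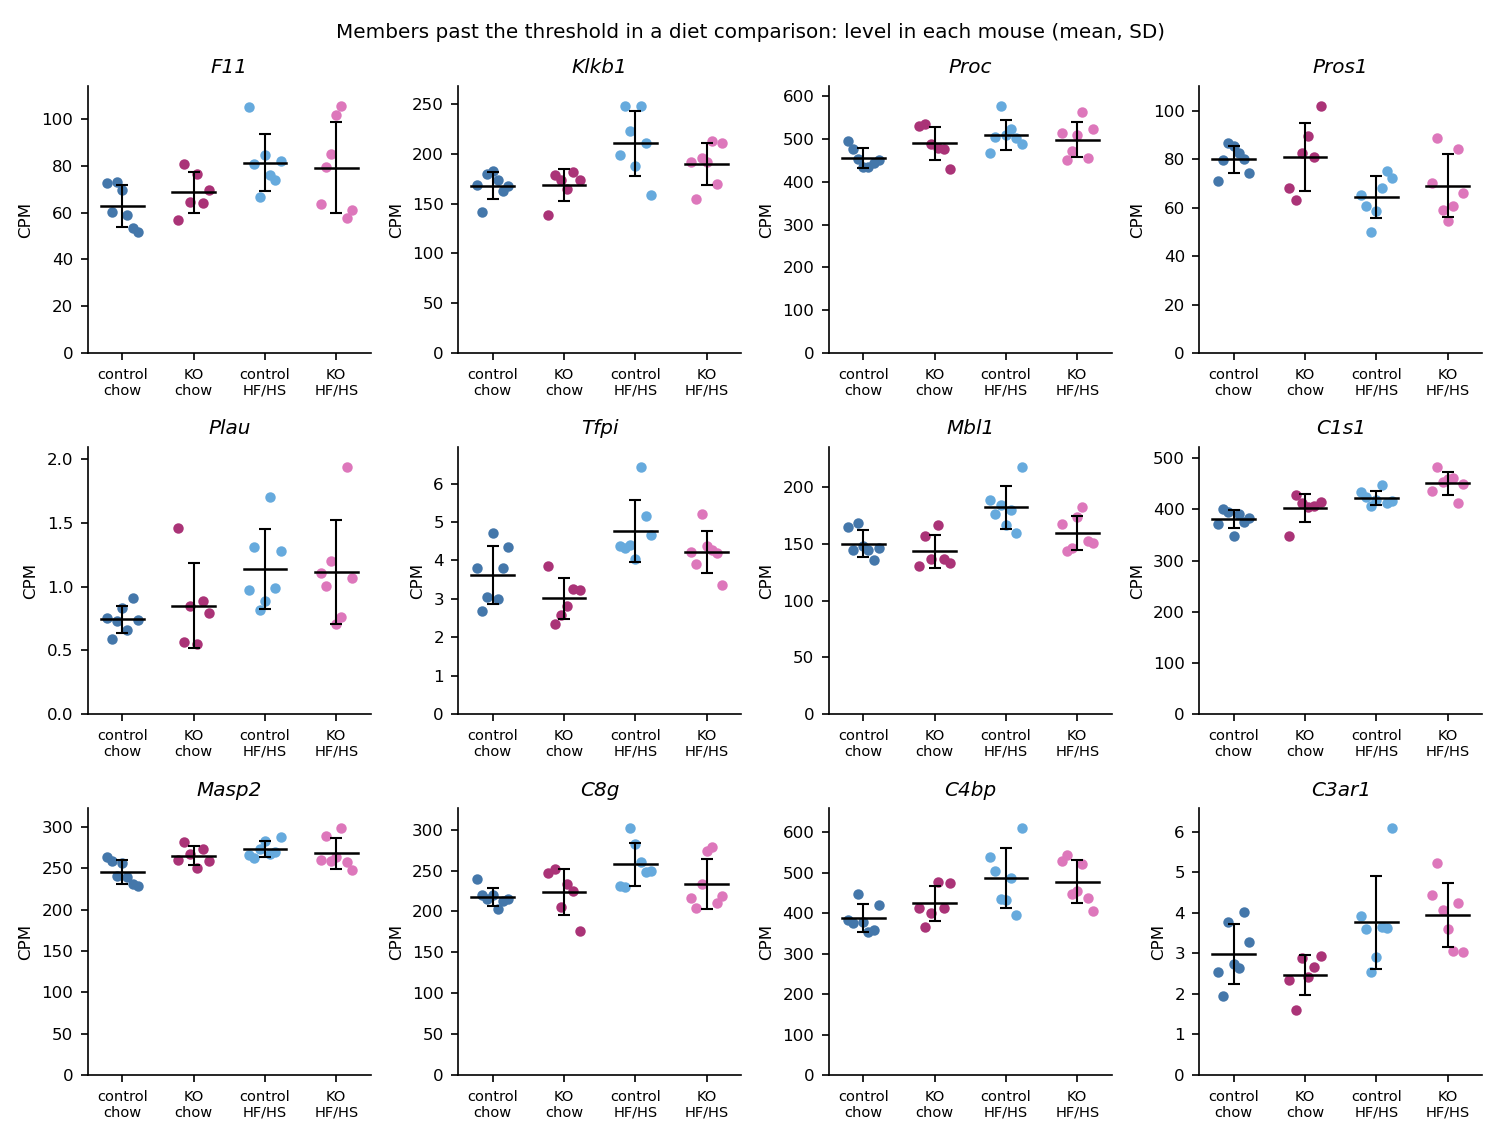
Level in CPM of each of the 12 members past the threshold in controls or in HGFAC-KO mice, with 1 point per mouse, the mean of each group as a line and its SD as bars. HF/HS and chow do not overlap for *C1s1* in controls and for *C3ar1* in HGFAC-KO mice, and *Pros1* is lower on HF/HS in controls.

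In HGFAC-KO mice, HF/HS against chow raised 1 of 26 complement genes (3.85%) and 1 of 25 coagulation genes (4.0%), while 3.17% of all 13613 genes rose. It lowered 0 members, while 2.73% of all genes fell. DESeq2 called 3 complement and 2 coagulation genes in either direction, with 10.3% of all genes against 5.89% by edgeR. The log2 fold change was above 0 in 21 of 26 complement genes (median 0.097) and in 16 of 25 coagulation genes (median 0.0087), against 50.8% of all genes (median 0.0037), and without the high-*Saa1* mouse the medians were 0.13 and 0.014, with 23 of 26 and 15 of 25 above 0.

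*C3ar1* (chr6:122847138-122856161, minus strand) spanned 1.601 to 2.94 CPM (median 2.54) on chow and 3.04 to 5.23 CPM (median 4.06) on HF/HS, so that the groups did not overlap, as for 3.03% of all genes. It encodes the receptor for the C3a fragment and rose by 60.2% (log2 fold change 0.68, SE 0.16, adjusted p = 0.021 from edgeR), and it passed under all 19 alternatives run, also without the high-*Saa1* mouse (adjusted p = 0.0429). *Tfpi* (chr2:84432855-84476775, minus strand) spanned 2.35 to 3.85 CPM (median 3.02) on chow and 3.36 to 5.21 CPM (median 4.23) on HF/HS, with 6 of 7 HF/HS mice above all chow mice. It encodes the inhibitor of the tissue factor pathway and rose by 40.5% (log2 fold change 0.49, SE 0.13, adjusted p = 0.0356). Its call was lost without KO chow replicate 2, 3, 4 or 5 or KO HF/HS replicate 1, 3, 4 or 6 (adjusted p from 0.0531 to 0.0826), among them the high-*Saa1* mouse, KO chow replicate 4 (0.0714).

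The diet comparisons of the cell markers and acute phase genes are given beside these values, and the lists did not all move in 1 direction. In HGFAC-KO mice, 6 of 7 Kupffer cell markers were higher on HF/HS and 3 passed, with sums from 125 to 188 CPM on chow and from 159.7 to 284 CPM on HF/HS. In controls 6 of 7 were higher and 0 passed, with sums from 132 to 283 CPM and from 162 to 329.5 CPM. Of the 7 sinusoidal endothelial markers 6 were higher in HGFAC-KO mice, of which 1 passed, with sums from 137 to 222 CPM and from 180.5 to 266 CPM. In controls 6 were higher and 0 passed, with sums from 156 to 265 CPM and from 186 to 303 CPM. Of the 5 neutrophil markers *Ly6g* was at 0 in 25 livers, *Mpo* in 19 and *Ngp* in 6, and 2 entered the test. *S100a8* rose in controls (log2 fold change 1.62, SE 0.36, adjusted p = 0.0082 from edgeR), while *S100a9* in controls (1.32, SE 0.41, adjusted p = 0.0505) and both in HGFAC-KO mice (0.98, SE 0.46 and 1.19, SE 0.38) did not pass, and both rose in the average over the genotypes given below (1.30, SE 0.30 and 1.26, SE 0.29). In controls the neutrophil sums ran from 0.516 to 1.30 CPM on chow and from 1.2 to 4.86 CPM on HF/HS, with the high-*Saa1* mouse the highest. Those of the HGFAC-KO groups ran from 0.509 to 2.25 CPM on chow and from 1.11 to 3.78 CPM on HF/HS. Of the other lists, 5 of 6 stellate cell and 0 of 4 cholangiocyte markers were higher in controls, and 5 of 6 and 0 of 4 in HGFAC-KO mice. The stellate cell marker past the threshold, *Lrat* in controls, fell (log2 fold change -0.60, SE 0.16, adjusted p = 0.0273). Of the hepatocyte markers 2 of 5 were higher in controls, of which *Apoa1* passed (0.39, SE 0.054), and 3 of 5 in HGFAC-KO mice, of which 0 passed. Of the 11 acute phase genes 7 were higher in controls, of which *Fgb* passed (0.40, SE 0.12), and 3 in HGFAC-KO mice, the fibrinogen chains *Fga*, *Fgb* and *Fgg*, which all passed, with medians over the 11 of 0.38 and -0.61. These values include the high-*Saa1* livers, 1 in the HF/HS controls and 1 in the chow HGFAC-KO group. In the other livers *Saa1* ran from 29.3 to 246 CPM on chow and from 16.3 to 126 CPM on HF/HS in controls. In HGFAC-KO mice it ran from 20.4 to 48.8 CPM on chow and from 22.8 to 181 CPM on HF/HS, so the directions depend on these 2 livers for *Saa1*. The part of these cells and of the acute phase genes in the values of the members was not tested.

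Of the 12 members called in a genotype, 0 were called in both, while this held for 30.0% of all genes called in controls and 53.2% of those called in HGFAC-KO mice. In HGFAC-KO mice the log2 fold changes of the genes called in controls were 0.16 for *Mbl1* (SE 0.073), 0.17 for *C1s1* (SE 0.057), 0.18 for *C4bp* (SE 0.085), 0.18 for *Klkb1* (SE 0.08), 0.21 for *F11* (SE 0.14), 0.38 for *Plau* (SE 0.27) and -0.23 for *Pros1* (SE 0.13). They were 0.071 for *C8g* (SE 0.095), 0.021 for *Masp2* (SE 0.055, and 0.0043 without the high-*Saa1* mouse) and 0.03 for *Proc* (SE 0.068). In controls *C3ar1* had 0.34 (SE 0.19, and 0.18 without the high-*Saa1* mouse) and *Tfpi* 0.39 (SE 0.14). All 12 had the same sign in both genotypes, and the interaction, which tests the difference, had an adjusted p of at least 0.984 for each member. Without the high-*Saa1* pair the interaction of *C3ar1* was 0.50 (SE 0.24, adjusted p = 0.843 from edgeR), and a missing call does not show that the diet effects were alike.

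Averaged over the genotypes, a comparison added after the others were seen, HF/HS raised 10 of 26 complement genes (38.5%) and 5 of 25 coagulation genes (20%), while 12.1% of all 13932 genes rose. It lowered 1 complement gene (3.85%) and 1 coagulation gene (4.0%), while 11.4% of all genes fell. It uses the same mice as the comparisons within a genotype, where 11 of these 17 genes were called and *Proc* besides. By role, the 17 were 4 of 6 terminal components, 3 of 6 recognition proteins and initiating proteases, 2 of 5 convertase components, 1 of 7 regulators and 1 of 2 receptors in complement, and 3 of 8 contact and intrinsic genes, 2 of 6 anticoagulants, 1 of 5 fibrinolysis genes and 0 of 6 extrinsic and common pathway genes in coagulation.

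The 6 genes called in the average alone were *C4b*, *C6*, *C8a*, *C9* and *F8*, which rose, and *C2*, which fell. *C4b* had medians of 1109.9 and 1204 CPM on chow (controls first) and of 1279 and 1403 CPM on HF/HS (log2 fold change 0.32, SE 0.086, adjusted p = 0.00783 from edgeR). *C9*, which lines the pore, had medians of 413 and 407 CPM and of 458 and 489.5 CPM (log2 fold change 0.33, SE 0.099, adjusted p = 0.0186). *C6* (log2 fold change 0.26, SE 0.094, adjusted p = 0.045) and *C8a* (log2 fold change 0.17, SE 0.061, adjusted p = 0.0418) were closer to the threshold, and they passed in 11 of 27 and 13 of 27 fits that left out 1 mouse (adjusted p up to 0.0852 and 0.0774). *C2* had medians of 128 and 136 CPM on chow and of 104 and 122 CPM on HF/HS (log2 fold change -0.15, SE 0.052, adjusted p = 0.0312), whereas *Cfb*, its counterpart in the alternative pathway 85 bases away, had 0.04 (SE 0.068) on the log2 scale. Gm20547, an annotated gene on the same strand, shares 42.8% of the exon bases of *C2* and 79.5% of those of *Cfb*. *F8* had medians of 11.5 and 7.86 CPM on chow and of 11.5 and 12.4 CPM on HF/HS (log2 fold change 0.36, SE 0.12, adjusted p = 0.0348). In this average 6 of 7 sinusoidal endothelial markers were higher and 4 passed, and 6 of 7 Kupffer cell markers were higher and 3 passed, beside *F8*, *C3ar1* and *Tfpi*, and their part in these values was not tested.

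In the average, 10 of the 17 genes passed in all 34 fits run, *C1s1*, *C3ar1*, *C4b*, *C4bp*, *C9*, *F11*, *Klkb1*, *Mbl1*, *Pros1* and *Tfpi*. With 1 mouse left out, *C2* passed in 22 of 27 fits, *F8* in 16, *C8g* in 11 and *Masp2* in 10. Without the high-*Saa1* libraries, *C8g* (adjusted p = 0.0519 from edgeR), *Masp2* (0.122), *F8* (0.0638) and *Plau* (0.0578) did not pass, and *C5ar1*, the C5a receptor, passed (0.0258 against 0.053 with all mice, log2 fold change 0.60 and 0.61).

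Neighbouring members and paralogs can be set side by side in this average. *C8a* and *C8b*, 11130 bases apart on chromosome 4, had log2 fold changes of 0.17 (SE 0.061) and 0.11 (SE 0.066). *C1ra* and *C1s1*, 6901 bases apart on chromosome 6, had 0.089 (SE 0.038) and 0.16 (SE 0.033). *F7* and *F10*, 1498 bases apart on chromosome 8, had -0.05 (SE 0.038) and 0.011 (SE 0.034, and 0.0043 without the high-*Saa1* pair). *Kng1* and *Kng2*, close paralogs on chromosome 16, had -0.056 (SE 0.048) and -0.016 (SE 0.056, and -0.0096 without that pair). Values of such paralogs, and of *C4b*, *C1ra* and *C1s1* beside their copies *C4a*, *C1rb* and *C1s2*, are uncertain where reads match both.

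The other genes of these systems were counted from lists of further complement and coagulation genes in the same fits. By genotype, 0 passed by edgeR on either diet, with 4 of 28 complement and 2 of 25 coagulation genes on chow, and 1 of 27 and 3 of 24 on HF/HS, at an unadjusted p under 0.05, beside 5.98% and 9.64% of all genes. On chow 6 of these 28 complement genes had log2 fold changes above 0 and 22 below 0 (median -0.17), the opposite balance to the 26 members, and 18 of the 25 coagulation genes were above 0 (median 0.046). By diet in controls, 3 of 27 complement genes rose, *Cpn1* (log2 fold change 0.21, SE 0.045), *Colec11* (0.26, SE 0.066) and *C1rl* (0.16, SE 0.049), and 2 of 24 coagulation genes, *Anxa2* (0.40, SE 0.097) and *Proz* (0.16, SE 0.042), while 4.93% of all genes rose. In HGFAC-KO mice 5 of 28 complement genes rose, while 3.17% of all genes did. They were the C1q chains *C1qa* (0.49, SE 0.085), *C1qb* (0.50, SE 0.093) and *C1qc* (0.45, SE 0.092), properdin (*Cfp*, 0.47, SE 0.10) and the integrin chain *Itgb2* (0.55, SE 0.15), all of which macrophages express. Of the coagulation genes 0 of 25 passed by edgeR there, with 5 at an unadjusted p under 0.05, as 22.4% of all genes were. In the average, 13 of 28 complement genes rose and 0 fell, and 6 of 26 coagulation genes rose and 1 fell, beside 12.1% of all genes that rose and 11.4% that fell. The Kupffer cell markers given above moved in the same direction as the C1q chains, and their part was not tested.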

How the data were processed

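Liver RNA of 27 mice was sequenced as paired ends from a stranded mRNA kit. Per the study's methods the authors aligned reads with HISAT2 to GRCm38 and counted them with featureCounts (version 1.6.3 in the submitters' processing notes). The deposited values are whole-number counts per gene, not normalized. The annotation and the settings for strand and for reads in several genes are not given in the sources used here.

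Rows without a gene name (3886 of 27179, 4.13 to 12.1% of a library's counts) were left out, and 89 symbols on several rows were summed. Libraries held 36056177 to 57298657 counts (median 47239271), and no pair within a group agreed within sampling noise. The count tables were fitted with edgeR 4.0.16 in R 4.3.3 (filterByExpr, TMM, robust quasi-likelihood fit and test), with Benjamini-Hochberg adjustment over all genes tested and a threshold of 0.05. Fits within a diet or genotype used those mice, and the interaction and averages used all 27. CPM used TMM factors over all 27 mice, and exon lengths and positions came from a GRCm38 annotation. DESeq2 1.42.0, limma voom (3.58.1), upper-quartile scaling, no filter, a replicate block, all mice in 1 fit and leaving out each mouse were alternatives, and leaving out the libraries over 1000 CPM of *Saa1* was chosen after seeing the data. The script was tested on simulated data.

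The members and lists were chosen with earlier results of these data known. Members past the threshold are given with full statistics, and otherwise the 3 members of each list with the smallest p in a comparison. Other members and further genes of the pathways are given by counts or values, the latter by name where they passed, at most 5 per comparison with the smallest p. *C5ar1* in the average, *C3ar1* and *Tfpi* beside cell markers and the library with the highest *Saa1* were named after their values were seen.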

Additional observations from a re-analysis of the deposited data

Results flagged for a closer look

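In 11 of the 204 sets of values (51 members in 4 groups), 1 mouse lay farther from the rest of its group than Dixon's 95% critical value allows, where chance alone gives about 1 in 20 sets, or 10.2. In KO chow replicate 1, *C1s1* was low at 347.6 CPM (the others 405 to 429), *Mbl2* was high at 338.1 CPM (the others 186 to 224) and *Plau* was high at 1.464 CPM (the others 0.551 to 0.89). In control HF/HS replicate 7, the control with the highest *Saa1*, *C3ar1* was at 6.093 CPM (the others 2.55 to 3.93), *Thbd*, the thrombin receptor thrombomodulin, at 13.85 CPM (the others 3.14 to 7.19) and *Cpb2* at 317.2 CPM (the others 228 to 254), all high. In control chow replicate 1, *C2* was low at 102.8 CPM (the others 125 to 139) and *Cfd* high at 1.648 CPM (the others 0.135 to 0.617). *Clu*, which encodes clusterin, was high at 1851.9 CPM (the others 1434 to 1604) in KO HF/HS replicate 2, *Plau* was high at 1.941 CPM (the others 0.709 to 1.203) in KO HF/HS replicate 6, and *Serpinc1* was low at 1896.7 CPM (the others 2004 to 2055) in control HF/HS replicate 1.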

How the results depend on the processing

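By genotype, by the interaction and by the averaged genotype effect, 0 members of either list passed under every alternative run. For the diet in controls, 5 complement and 5 coagulation genes became 2 and 1 with the replicate number as a block and 6 and 7 with DESeq2, the coagulation count was 2 with all 27 mice in the fit, and leaving out each mouse in turn gave 2 to 5 and 1 to 5. The complement count was 3 without control chow replicate 5 and 2 without replicate 6, and the coagulation count was 1 without control chow replicate 2 and 2 without control chow replicate 5, 6 or 7 or control HF/HS replicate 2 or 5. For the diet in HGFAC-KO mice, 1 complement gene and 1 coagulation gene became 3 and 2 with DESeq2 (in both genotypes beside a larger share of all genes, as given with the results), the complement count was 2 with all 27 mice and the coagulation count 0 without the high-*Saa1* mouse, and leaving out each mouse gave 1 to 2 (2 without KO HF/HS replicate 5) and 0 to 2 (0 without KO chow replicate 2, 3, 4 or 5 or KO HF/HS replicate 1, 3, 4 or 6, but 2 when KO HF/HS replicate 7 was left out). For the averaged diet effect, 11 complement genes became 7 without a filter, 7 with the replicate block and 7 to 12 with each mouse left out (7 without control chow replicate 6, KO chow replicate 3, control HF/HS replicate 6 or KO HF/HS replicate 4). Of the 10 members called in controls, *C8g* (adjusted p = 0.0762 from edgeR), *C1s1* (0.104), *Masp2* (0.124), *Pros1* (0.0688), *Klkb1* (0.086), *Plau* (0.109) and *Proc* (0.151) lost the call with the block, *Pros1*, *F11*, *Plau* and *Proc* with all 27 mice in the fit (adjusted p from 0.0539 to 0.0714), and *Masp2* and *Proc* without a filter or with upper-quartile scaling. The cause of these shifts was not tested. Same-numbered mice did not deviate together in every pair (correlations of -0.15 to 0.37 on chow and -0.25 to 0.29 on HF/HS between genotypes, -0.23 to 0.09 between diets in controls and -0.15 to 0.27 in HGFAC-KO mice), with 1 of 6, 3 of 7, 0 of 7 and 4 of 6 pairs over 0.1 and 1, 0, 1 and 2 correlating best with their own number. A pairing was thus not shown, and the block moved no genotype count. Of 1429 values under alternatives of the genes given with full statistics, 1272 kept their direction and their side of the threshold, 157 kept the direction and lost the call, and 0 changed direction, whereas other members did so without the high-*Saa1* libraries, as given with the results. All 51 members also pass edgeR's own filter in each comparison, and differences under the spread between mice were not detectable, most of all in the 11 members under 15 CPM.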
